A study of Mus musculus with 60 samples.

Results

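A set of 10 genes of serine synthesis, mitochondrial folate metabolism and amino acid transport was followed across 6 strains of undifferentiated mouse embryonal carcinoma cells. They were taken by name: every probe set (the group of short probes on an array that reads 1 transcript) whose platform gene symbol is Phgdh, Psat1, Psph, Shmt2, Mthfd2, Aldh1l2, Slc7a11, Slc7a5, Slc7a3 or Slc3a2. These are 10 of the 18193 genes that the platform annotation names with a single symbol, and all 10 were among the 13181 genes bright enough to test. They had 20 probe sets, of which 19 were tested. The strains were CL6G36, CL6G45, CL6G26 and CL6G52, all sublines of P19CL6, then P19CL6 itself, and P19, from which P19CL6 was derived. Each had 5 replicates, and each replicate was hybridised to 1 MOE430A and 1 MOE430B array, 60 arrays in all. The labels give every strain as C3H, male and of embryonic origin, and name no transgene, mutation or treatment. All cells were kept in alpha-MEM with fetal calf serum, L-glutamine and antibiotics. The labels do not say what the sublines were selected for or whether each is a single clone, and although the replicates are called biological, nothing says that they were separate cultures. Where they were not, the spread that the p-values measure may be technical.

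Serine is made from a glycolytic intermediate in a chain of reactions: Phgdh oxidises 3-phosphoglycerate, Psat1 adds an amino group taken from glutamate, and Psph removes the phosphate. In mitochondria Shmt2 passes a carbon from serine to folate and releases glycine, Mthfd2 oxidises that folate-bound carbon, and Aldh1l2 can burn it to carbon dioxide with a gain of NADPH. The membrane proteins bring amino acids in: Slc7a5 carries large neutral amino acids and Slc7a11 exchanges cystine for glutamate, both paired with the heavy chain Slc3a2, while Slc7a3 carries arginine, lysine and ornithine without it. Many of these genes are known targets of ATF4, a transcription factor made in larger amounts when amino acids run short or the endoplasmic reticulum is stressed. ATF4 binds, with a C/EBP partner, a short sequence called the amino acid response element.

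That element was looked for as TGATGNAAN on both strands of the promoter windows of the RefSeq table (GRCm38.p6), which run from 250 bases before to 50 bases after a start site. The table held 8 windows for 7 of the 10 genes, and Aldh1l2, Slc7a5 and Slc7a3 were not among them. The Slc7a11 window alone held the motif, with 2 matches that do not overlap, while 3.95% of all 32851 windows of this length held at least 1. The upstream 250 bases of Slc7a11 are shown because they carry both matches, which are in capitals. These 250 bases, the upstream part of the window, lie at chr3:50443614-50443863 on the minus strand and are written 5′ to 3′ along the gene.
Slc7a11 promoter: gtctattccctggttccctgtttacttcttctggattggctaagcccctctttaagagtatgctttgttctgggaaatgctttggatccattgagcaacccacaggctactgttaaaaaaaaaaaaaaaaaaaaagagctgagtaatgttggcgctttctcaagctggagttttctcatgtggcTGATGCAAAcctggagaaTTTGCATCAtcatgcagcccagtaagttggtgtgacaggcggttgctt
The matches begin 66 and 48 bases before the start site, the first as TGATGCAAA on the strand of the gene and the other, written here as TTTGCATCA, on the opposite strand. A match is a description of the sequence and not a measured binding site.

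Levels are given as log2 signals after quantile normalisation within an array type. They can be compared between strains for 1 probe set but not between genes, because probe sets differ in how strongly they bind. A gene was read from its brightest tested probe set, with MOE430A before MOE430B, and from one of the x_at kind, which may also bind related transcripts, only where it had no other. Tests used limma, with p-values adjusted by the Benjamini-Hochberg method over all probe sets tested on the array type. A gene "rose" or "fell" where the adjusted p was under 0.05, and a difference is given with its standard error (SE). A probe set was counted as above the floor of an array when its log2 signal exceeded 4.61 on MOE430A or 4.15 on MOE430B.

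Several arrays did not lie with the others of their strain. CL6G52 replicate 1 correlated best with a CL6G45 array on both array types, at r = 0.966 on MOE430A and 0.832 on MOE430B. P19 replicate 4 correlated best with a P19CL6 array on both array types, and P19 replicates 4 and 5 stood apart from P19 replicates 1 to 3. P19 replicate 5 correlated best with P19 replicate 4 on MOE430A and with P19CL6 replicate 2 on MOE430B, there at r = 0.849. On MOE430B such matches are less distinctive, since arrays of other strains also correlated best with another strain. Among these were CL6G26 replicate 1 and CL6G45 replicate 4 with P19CL6 replicate 2, and CL6G36 replicate 4 with CL6G45 replicate 2. On MOE430A, P19CL6 replicates 1 and 2 correlated best with each other and P19CL6 replicates 3 to 5 with P19 replicate 4 or 5. On MOE430B, P19CL6 replicates 3 to 5 each correlated best with P19CL6 replicate 2, so that they did not form a set of their own there. The labels were kept, and whether CL6G52 replicate 1, P19 replicate 4 or P19 replicate 5 was exchanged or mixed with another sample was not tested. The CL6G52 and P19 means hold these arrays, and the main comparisons and correlations are given with and without them. All 8 embryonal carcinoma markers were above the floor on every array, among them Pou5f1, which encodes Oct4. Its mean signal was lowest in CL6G52, at 11.24 ± 0.14, and highest in CL6G36, at 11.59 ± 0.08 (SD, n = 5). Col3a1 and Postn of fibroblasts, Neurog1 and Sox1 of neural cells, and Myh6 and Tnnt2 of heart muscle were above the floor on no array. Other members of these lists of 6 were detected. Above the floor on all 5 arrays were 2 fibroblast markers in every strain and 1 neural marker, or 2 in P19CL6. Of the heart muscle markers 1 was so in every strain but CL6G52, where 0 were. The summed linear signal of the embryonal carcinoma markers was 9874 to 10670 in CL6G36 and 10490 to 10950 in CL6G45, against 9420 to 9996 in P19CL6. Its members went both ways: 1 of 8 rose and 2 fell in CL6G36 against P19CL6, and 2 rose and 2 fell in CL6G45. Of all genes tested, 13.5% passed in CL6G36 and 13.3% in CL6G45, shares that also stand behind the endoderm count below. Nanog, a pluripotency factor, fell by 1.10 ± 0.12 in CL6G36 and by 1.02 ± 0.12 in CL6G45 (adjusted p = 3.5e-08 and 2.97e-07, limma). Tdgf1 fell and Utf1 rose in both. These 3 markers are named after their values were seen. The linear signal of 6 endoderm markers, summed the same way, was 146.9 to 177.5 in CL6G36 and 145.5 to 183.6 in CL6G45, against 224.7 to 323.7 in P19CL6, and 2 of the 4 that could be tested fell in each of these sublines. In bulk RNA, fewer cells of a type and less RNA per cell cannot be told apart, and the part of either marker list in the results below was not tested. The median linear signal of an array lay between 30.2 and 53.4 (MOE430A) or between 10.6 and 16.5 (MOE430B), and 5 arrays a strain set the limit of precision.

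For 9 of the 10 genes, all but Slc7a3, the sublines CL6G36 and CL6G45 held the top and second place in the order of strain means with or without the arrays that stood apart. CL6G36 was highest for 7 of these 9 and CL6G45 for Aldh1l2 and Slc7a5. For Slc7a3 the order turned on P19 replicates 4 and 5. Over all arrays its mean was 10.20 in CL6G45 and 10.14 in CL6G36, against 9.98 in P19, but P19 replicates 1 to 3 averaged 10.32, above both. Over all arrays P19 was lowest for 9 genes and P19CL6 for Slc7a3. Without CL6G52 replicate 1, CL6G52 was lowest for Slc3a2, at 10.07, and without P19CL6 replicates 1 and 2, P19CL6 was lowest for Aldh1l2. The sublines were not tested against P19. These orders without arrays were computed after seeing the data. The plot of signals by array shows this order gene by gene.

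**Figure D1:**
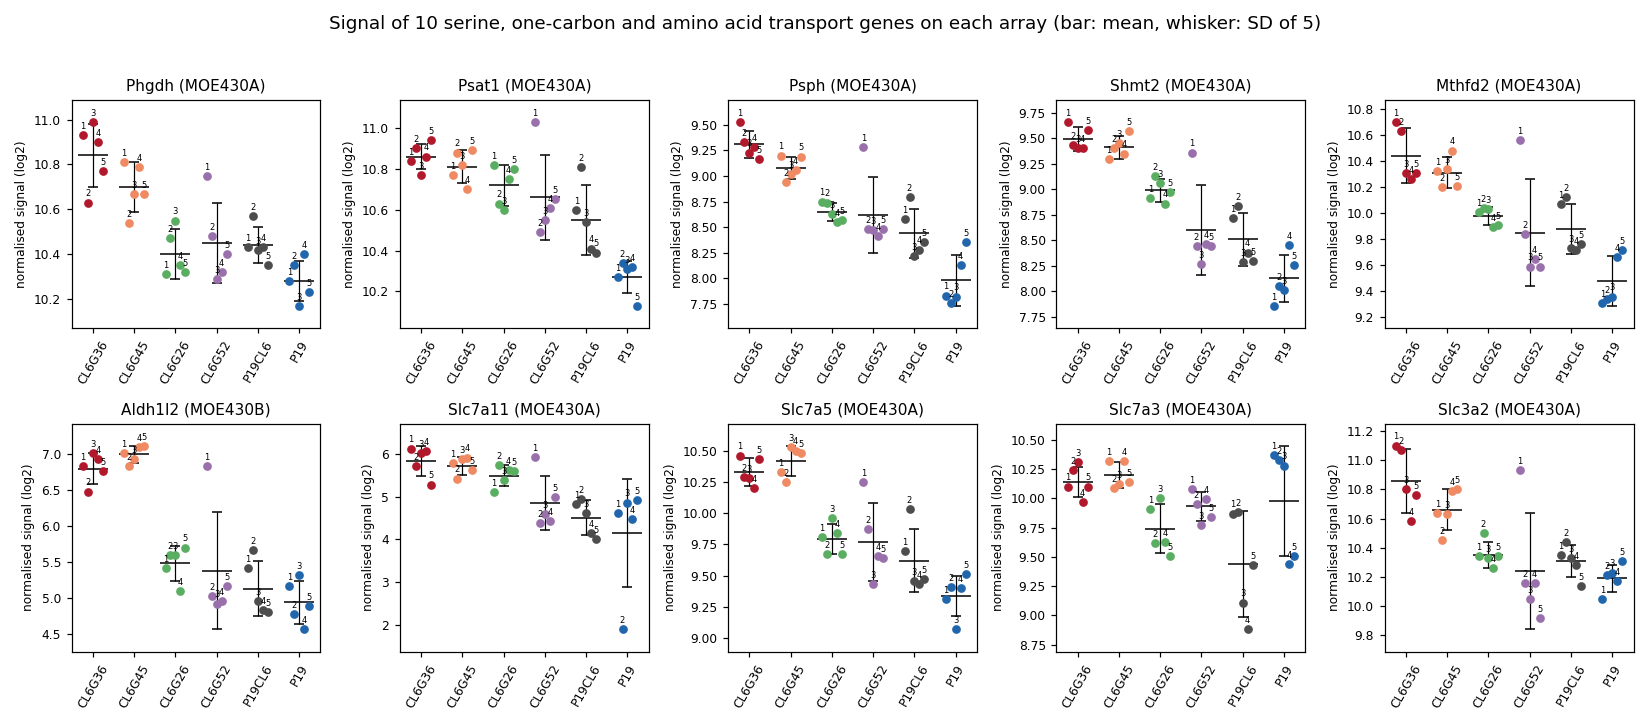
Normalised log2 signal (vertical axis) of each of the 10 genes on every array, by strain; points are arrays with their replicate numbers, the horizontal bar is the mean and the whisker the SD of 5 arrays. CL6G36 and CL6G45 have the highest means for all 10 genes, although the highest single Slc7a3 array is P19 replicate 1, at 10.37, and CL6G52 replicate 1 stands above the other CL6G52 arrays for all 10.

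The serine synthesis genes rose in both sublines. Psph, the enzyme that completes the chain, moved most of the 3. It read 9.53, 9.33, 9.23, 9.28 and 9.17 in CL6G36 and 9.20, 8.94, 9.02, 9.06 and 9.19 in CL6G45, against 8.58, 8.79, 8.22, 8.28 and 8.35 in P19CL6. Every array of both sublines was above every P19CL6 array. The difference from P19CL6 was 0.87 ± 0.13 (SE) in CL6G36, a fold of 1.82 (adjusted p = 1.56e-05, limma), and 0.64 ± 0.13 in CL6G45, a fold of 1.55 (adjusted p = 0.000868, limma). The same Psph probe set is also on MOE430B, where it read 8.85 to 9.29 in CL6G36 and 8.68 to 8.88 in CL6G45, against 7.85 to 8.46 in P19CL6. On that array type the differences were 0.93 ± 0.12 in CL6G36 and 0.70 ± 0.12 in CL6G45 (adjusted p = 2.97e-06 and 0.000397, limma), close to those on MOE430A.

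Phgdh, which commits carbon to the chain, read 10.93, 10.63, 10.99, 10.90 and 10.77 in CL6G36 and 10.81, 10.54, 10.67, 10.79 and 10.67 in CL6G45, against 10.43, 10.57, 10.42, 10.43 and 10.35 in P19CL6. CL6G36 lay wholly above P19CL6, while CL6G45 replicate 2 lay within the range of P19CL6. The difference was 0.40 ± 0.08 in CL6G36 (adjusted p = 0.000341, limma) and 0.25 ± 0.08 in CL6G45 (adjusted p = 0.0206, limma). Phgdh has 4 probe sets, all of the x_at kind. Of these, 3 passed in both sublines, while the dimmest differed by 0.20 ± 0.08 in CL6G36 and 0.21 ± 0.08 in CL6G45 (adjusted p = 0.0819 and 0.073, limma). Psat1, the aminotransferase of the chain, overlapped P19CL6 in both sublines. It read 10.77 to 10.94 in CL6G36 and 10.70 to 10.89 in CL6G45, against 10.39 to 10.81 in P19CL6. The differences were 0.31 ± 0.08 in CL6G36 (adjusted p = 0.0055, limma) and 0.26 ± 0.08 in CL6G45 (adjusted p = 0.0197, limma). The other Psat1 probe set differed by 0.28 ± 0.10 and 0.24 ± 0.10 in CL6G36 and CL6G45 and did not pass (adjusted p = 0.0608 and 0.115, limma).

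All 3 mitochondrial folate genes rose, and the widest difference of the 10 genes was among them. Aldh1l2, the formyltetrahydrofolate dehydrogenase, is read on MOE430B alone. It read 6.83, 6.48, 7.01, 6.93 and 6.76 in CL6G36 and 7.01, 6.83, 6.93, 7.10 and 7.11 in CL6G45, against 5.41, 5.66, 4.95, 4.83 and 4.80 in P19CL6. The lowest subline array was well above the highest P19CL6 array. Aldh1l2 rose by 1.67 ± 0.24 in CL6G36, a fold of 3.19 (adjusted p = 3.29e-05, limma), and by 1.87 ± 0.24 in CL6G45, a fold of 3.65 (adjusted p = 8.08e-06, limma). Shmt2, the serine hydroxymethyltransferase that feeds this pathway, read 9.66, 9.43, 9.40, 9.40 and 9.58 in CL6G36 and 9.30, 9.40, 9.45, 9.35 and 9.57 in CL6G45, against 8.72, 8.84, 8.29, 8.38 and 8.30 in P19CL6. Neither subline overlapped P19CL6. The difference was 0.99 ± 0.14 in CL6G36, a fold of 1.98 (adjusted p = 6.72e-06, limma), and 0.91 ± 0.14 in CL6G45, a fold of 1.88 (adjusted p = 2.98e-05, limma). A brighter Shmt2 probe set of the x_at kind rose by 0.78 ± 0.12 in CL6G36 and 0.77 ± 0.12 in CL6G45. The other 2 Shmt2 probe sets were dim, at mean signals of 5.40 and 4.59 over all arrays, did not pass, and took Shmt2 below the threshold when all 4 were averaged (adjusted p = 0.183 in CL6G36 and 0.192 in CL6G45, limma). Mthfd2, the dehydrogenase and cyclohydrolase, read 10.26 to 10.70 in CL6G36 and 10.20 to 10.48 in CL6G45, against 9.72 to 10.12 in P19CL6. It rose by 0.56 ± 0.13 in CL6G36 (adjusted p = 0.00268, limma) and by 0.43 ± 0.13 in CL6G45 (adjusted p = 0.0211, limma), without overlap. Its other probe set rose by 0.59 ± 0.10 and 0.49 ± 0.10 in CL6G36 and CL6G45.

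Among the transporters, Slc7a11, the cystine carrier whose promoter is shown above, was dim and had the largest fold. It read 6.12, 5.72, 6.02, 6.06 and 5.28 in CL6G36 and 5.79, 5.42, 5.88, 5.91 and 5.62 in CL6G45, against 4.82, 4.95, 4.62, 4.15 and 4.01 in P19CL6. All arrays of both sublines were above the floor, against 3 of 5 in P19CL6, so part of the size of this difference rests on signals under the floor. The difference was 1.33 ± 0.37 in CL6G36 (adjusted p = 0.0108, limma) and 1.21 ± 0.37 in CL6G45 (adjusted p = 0.0219, limma). With signals raised to the floor it was 1.12 and 1.0 in CL6G36 and CL6G45, and both passed. Without P19CL6 replicate 4 or replicate 5 the call in CL6G45 was lost, with an adjusted p of at most 0.0639. A second Slc7a11 probe set, on MOE430B, was above the floor on none of the 30 arrays and was not tested.

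Slc7a5, the carrier of large neutral amino acids, was bright and tight. It read 10.46, 10.29, 10.28, 10.20 and 10.43 in CL6G36 and 10.33, 10.25, 10.53, 10.50 and 10.48 in CL6G45, against 9.70, 10.03, 9.46, 9.43 and 9.47 in P19CL6. No array of either subline fell within the P19CL6 range. It rose by 0.71 ± 0.11 in CL6G36 (adjusted p = 3.99e-05, limma) and 0.80 ± 0.11 in CL6G45 (adjusted p = 1.06e-05, limma). Its heavy chain partner Slc3a2 read 11.10, 11.07, 10.80, 10.58 and 10.76 in CL6G36 and 10.64, 10.45, 10.63, 10.79 and 10.80 in CL6G45, against 10.35, 10.44, 10.33, 10.28 and 10.14 in P19CL6. The lowest CL6G45 array was only just above the highest P19CL6 array. The difference was 0.56 ± 0.12 in CL6G36 (adjusted p = 0.00124, limma) and 0.36 ± 0.12 in CL6G45 (adjusted p = 0.038, limma). The Slc3a2 call in CL6G45 was the least firm of the 10 genes, since it was lost under 12 of 21 alternatives, with an adjusted p of up to 0.186. Slc7a3, the carrier of cationic amino acids, read 9.97 to 10.31 in CL6G36 and 10.09 to 10.32 in CL6G45, against 9.87, 9.88, 9.11, 8.88 and 9.43 in P19CL6. P19CL6 replicates 3 to 5 lay below replicates 1 and 2, and neither subline overlapped P19CL6. The difference was 0.71 ± 0.17 in CL6G36 (adjusted p = 0.00284, limma) and 0.76 ± 0.17 in CL6G45 (adjusted p = 0.00162, limma).

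Counted together, 10 of 10 genes rose in CL6G36 against P19CL6, where 13.5% of all genes tested passed and 6.83% passed with a rise. In CL6G45 against P19CL6, 10 of 10 rose as well, where 13.3% of all genes passed and 6.55% passed with a rise. Only Aldh1l2 and Slc7a11 also differed by at least 2-fold, in both sublines, where 1.46% of all genes did so in CL6G36 and 1.38% in CL6G45. The arrays did not overlap P19CL6 for 9 of 10 genes in CL6G36 and 8 of 10 in CL6G45, against 12.3% and 13.7% of all genes. The median difference of the 10 genes was 0.71 in CL6G36 and 0.70 in CL6G45, and that of all genes was 0 in both. The comparisons of the sublines share the 5 P19CL6 arrays. With those arrays reduced to replicates 3 to 5, all 10 genes still passed in each of CL6G36 and CL6G45. The share of all genes that passed in that fit is not given here. P19CL6 replicates 1 and 2 were above replicates 3 to 5 for all 10 genes. Leaving them out therefore widened every difference, so that fit is a weak check of the calls. The share of all genes with the same split is not given here, and on MOE430A these arrays correlated best with each other. With the scaling as deposited, 5 genes passed in CL6G36 and 6 in CL6G45, namely Aldh1l2, Psph, Shmt2, Slc7a11 and Slc7a5 in both, with Slc7a3 added in CL6G45. The count in CL6G45 was also 6 with median scaling or without P19CL6 replicate 4, and 5 without P19CL6 replicate 5. Over all genes, 863 rose and 884 (6.71%) fell in CL6G45, a split that was 257 and 128 with the deposited scaling and 564 and 1065 with median scaling.

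**Figure D2:**
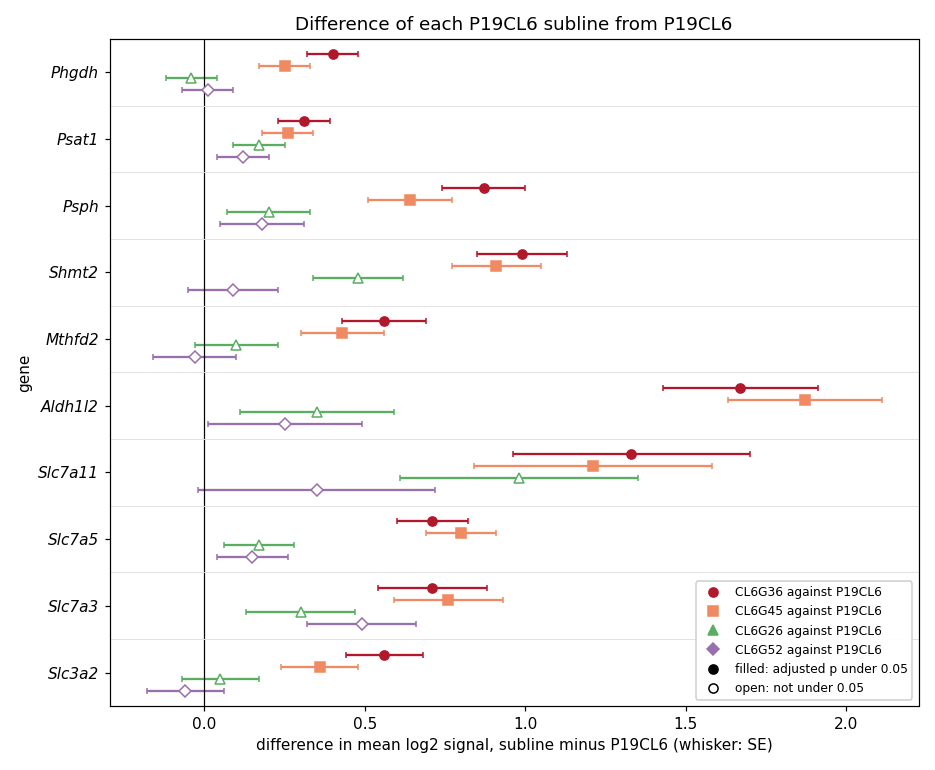
Difference in mean log2 signal (horizontal axis) of each subline from P19CL6 for the 10 genes, with the SE as the whisker; filled points had an adjusted p under 0.05 in limma. The points of CL6G36 and CL6G45 are filled for all 10 genes, from 0.25 for Phgdh in CL6G45 to 1.87 for Aldh1l2 in CL6G45, and all points of CL6G26 and CL6G52 are open.

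In CL6G26 against P19CL6, 0 of 10 genes passed in limma, where 1.24% of all genes did. At an unadjusted p under 0.05 there were 3, namely Psat1, Shmt2 and Slc7a11, and 1418 of all 13181 genes. Shmt2 read 8.91, 9.13, 9.06, 8.86 and 8.97 in CL6G26, all above the 8.84 of the highest P19CL6 array, and differed by 0.48 ± 0.14 (adjusted p = 0.0774, limma). Slc7a11 read 5.10, 5.73, 5.38, 5.62 and 5.60 in CL6G26, also above every P19CL6 array, and differed by 0.98 ± 0.37 (adjusted p = 0.219, limma). With signals raised to the floor this Slc7a11 difference was 0.76 and passed (adjusted p = 0.0254, limma). Without P19CL6 replicates 1 and 2, Shmt2 was the single one of the 10 genes that passed, and the count over all genes is not given here. The 8 genes other than Shmt2 and Slc7a11 differed by -0.04 for Phgdh to 0.35 for Aldh1l2. The share of all genes whose CL6G26 arrays lay apart from P19CL6 is not given here.

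In CL6G52 against P19CL6, 0 of 10 genes passed in limma, where 3.18% of all genes did, and Slc7a3 was the single one of the 10 at an unadjusted p under 0.05, as were 2017 of all genes. CL6G52 replicate 1 dominated the spread. Psph read 9.28 on that array and 8.48, 8.47, 8.41 and 8.48 on the other CL6G52 arrays, and Aldh1l2 read 6.83 against 5.03, 4.92, 4.95 and 5.17. Replicate 1 was the highest CL6G52 array for all 10 genes. As a whole it correlated best with a CL6G45 array, and the share of all genes highest on it is not given here. Without it, the differences from P19CL6 ran from -0.23 for Slc3a2 to 0.45 for Slc7a3, and again 0 genes passed. Slc7a3 read 10.08, 9.95, 9.77, 9.99 and 9.84 in CL6G52, with 3 arrays above the highest P19CL6 array and the other 2 above P19CL6 replicates 3 to 5. It differed by 0.49 ± 0.17 (adjusted p = 0.0913, limma). It passed when P19CL6 replicate 1, replicate 2 or both were left out.

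Set against each other, CL6G36 and CL6G45 lay above CL6G26 and CL6G52 for most of the genes. In CL6G36 against CL6G26, 7 of 10 genes rose, where 14.1% of all genes passed and 7.67% passed with a rise, with differences from 0.45 ± 0.08 for Phgdh to 1.32 ± 0.24 for Aldh1l2. Over all genes 1011 rose and 845 fell there, a split that was 151 and 570 with the deposited scaling. Psat1, Slc7a11 and Slc7a3 did not pass there. In CL6G45 against CL6G26, 5 of 10 rose, where 13.2% of all genes passed and 7.14% passed with a rise: Phgdh, Psph, Shmt2, Aldh1l2 and Slc7a5. Phgdh passed there only on the probe set read, and its others differed by 0.13 to 0.19 (adjusted p = 0.115 to 0.255, limma). Mthfd2 did not pass on the probe set read but did on its other, at 0.33 ± 0.10 (adjusted p = 0.0281, limma). There 941 of all genes rose and 805 fell, and 602 and 1166 with median scaling. In CL6G52 against CL6G36, 7 of 10 fell, where 13.1% of all genes passed and 7.46% passed with a fall. Over all genes 749 rose and 983 fell there, a split that was 384 and 109 with the deposited scaling and 461 and 1032 with median scaling. In CL6G52 against CL6G45, 7 of 10 fell, where 11.1% passed and 5.91% passed with a fall. Both times these were Phgdh, Psph, Shmt2, Mthfd2, Aldh1l2, Slc7a5 and Slc3a2. Aldh1l2 differed by -1.42 ± 0.24 in CL6G52 against CL6G36 and by -1.62 ± 0.24 in CL6G52 against CL6G45. Without CL6G52 replicate 1 every gene but Slc7a3 fell in both comparisons, where 2324 of all genes passed in CL6G52 against CL6G36 and 2140 in CL6G52 against CL6G45. Aldh1l2 then differed by -1.78 from CL6G36 and by -1.98 from CL6G45. The count was 3 in CL6G52 against CL6G45 without CL6G52 replicate 3 or replicate 5, and 3 in CL6G45 against CL6G26 without CL6G45 replicate 5, CL6G26 replicate 4 or CL6G26 replicate 5. With the deposited scaling 1 gene passed in each of CL6G36 and CL6G45 against CL6G26, 3 in CL6G52 against CL6G36 and 2 in CL6G52 against CL6G45.

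No gene passed between CL6G45 and CL6G36, or between CL6G52 and CL6G26. In CL6G45 against CL6G36, 0 of 10 genes passed in limma, where 3% of all genes did, and 0 of the 10 had an unadjusted p under 0.05, against 1968 of all genes. The differences there ran from -0.23 ± 0.13 for Psph to 0.20 ± 0.24 for Aldh1l2. In CL6G52 against CL6G26, 0 of 10 passed in limma, where 4.31% of all genes did, and of the 10 only Shmt2 had an unadjusted p under 0.05, against 2313 of all genes. Without CL6G52 replicate 1, Shmt2 fell by 0.58 and Slc3a2 by 0.28 in that comparison (adjusted p = 0.000585 and 0.0452, limma). Over the 4 sublines together, 7 of 10 genes passed the moderated F test of limma, where 23.2% of all genes did, and Aldh1l2 alone also had a range of at least 2-fold, as 3.02% of all genes had. Psat1, Slc7a11 and Slc7a3 were the 3 that did not pass, with adjusted p of 0.166, 0.134 and 0.0976 in limma. Without CL6G52 replicate 1, 9 of the 10 and 3584 of all genes passed the F test, with Psat1 and Slc7a11 added (adjusted p = 0.00665 and 0.0357, limma).

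Between P19CL6 and P19 the outcome turned on which arrays were used. The ratio of the 3′ to the 5′ Gapdh control probe set, a sign of RNA quality, also moved with the strains: on MOE430A it was 0.835 to 0.887 in P19CL6, against 0.908 to 0.954 in P19, without overlap. On MOE430B it was 0.829 to 0.878 in P19CL6, against 0.815 to 0.917 in P19. On that array type, which alone reads Aldh1l2, it was 0.801 to 0.864 in CL6G36 and 0.774 to 0.831 in CL6G45. There it was 0.83 to 0.876 in CL6G26 and 0.767 to 0.837 in CL6G52. On MOE430A it was 0.82 to 0.927 in CL6G36 and 0.795 to 0.875 in CL6G45. The part of this ratio in the results was not tested. In P19CL6 against P19, 3 of 10 genes passed, where 4.46% of all genes did. The other 7 differed by 0.11 for Slc3a2 to 0.40 for Mthfd2, Mthfd2 with an adjusted p of 0.0631 in limma. The other Mthfd2 probe set did pass, at 0.37 ± 0.10 (adjusted p = 0.0337, limma), so the count depends on the probe set read. Psat1 read 10.60, 10.81, 10.54, 10.41 and 10.39 in P19CL6, against 10.27, 10.34, 10.31, 10.32 and 10.13 in P19. The groups did not overlap, and it rose by 0.27 ± 0.08 (adjusted p = 0.0379, limma). The other Psat1 probe set overlapped and did not pass, at 0.09 ± 0.10 (adjusted p = 0.671, limma). Psph read 8.58, 8.79, 8.22, 8.28 and 8.35 in P19CL6, against 7.83, 7.76, 7.82, 8.13 and 8.35 in P19, with P19 replicates 4 and 5 nearest to P19CL6. It rose by 0.47 ± 0.13 (adjusted p = 0.0336, limma), and by 0.48 ± 0.12 on MOE430B (adjusted p = 0.0488, limma). Slc7a3 went the other way. It read 9.87, 9.88, 9.11, 8.88 and 9.43 in P19CL6, against 10.37, 10.33, 10.28, 9.44 and 9.51 in P19, and fell by 0.55 ± 0.17 (adjusted p = 0.0478, limma).

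Each strain here held a high and a low set of Slc7a3 arrays. In P19, replicates 1 to 3 lay at 10.28 to 10.37 and replicates 4 and 5 at 9.44 to 9.51. In P19CL6, replicates 1 and 2 lay at 9.87 to 9.88 and replicates 3 to 5 at 8.88 to 9.43. Against P19 replicates 4 and 5 alone the difference of P19CL6 was -0.04, and against P19 replicates 1 to 3 alone it was -0.89 (adjusted p = 5.2e-05, limma). For Psph, Shmt2 and Mthfd2 the split in P19 ran in the opposite direction, with replicates 4 and 5 above replicates 1 to 3. Mthfd2 read 9.72 to 10.12 in P19CL6, against 9.66 to 9.72 in P19 replicates 4 and 5 and 9.31 to 9.36 in P19 replicates 1 to 3. Against P19 replicates 1 to 3 alone, 5 of the 10 genes passed in P19CL6, where 2588 of all 13181 genes did. Against P19 replicates 4 and 5 alone, 0 of the 10 and 0 of all genes passed in limma. Without P19CL6 replicates 1 and 2, Slc7a3 alone of the 10 genes passed, at -0.84. No gene passed in limma without any 1 of P19 replicates 1, 2 or 3, with the deposited scaling, without the variance trend, or with the other strains left out of the fit.

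Over the 30 replicates, Pearson's r for the 36 pairs without Slc7a3 ran from 0.61 for Phgdh and Slc7a11 to 0.96 for Psph and Mthfd2. With strain means removed it ran from 0.20 for Psat1 and Slc7a11 to 0.89 for Psph and Mthfd2. Slc7a3 had r of 0.22 to 0.58 with the other 9 genes, lowest with Slc7a11 and highest with Aldh1l2, and -0.09 to 0.43 with strain means removed. Left out next, a choice made after seeing the data, were the 5 arrays that stood apart: CL6G52 replicate 1, P19 replicates 4 and 5, and P19CL6 replicates 1 and 2. Over the other 25 the 36 pairs ran from 0.60 to 0.96, and Slc7a3 from 0.18 to 0.53. Within strains those 25 arrays gave r from -0.65 for Phgdh and Psat1 to 0.74 for Mthfd2 and Slc3a2, with 0.54 for Psph and Mthfd2. These values are descriptions, since arrays of a strain are not independent of each other and each array adds its own labelling and scaling to all genes. On the heat map by replicate, P19CL6 replicates 1 and 2 were above replicates 3 to 5 for all 10 genes. How many of all genes split in that way is not given.

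**Figure D3:**
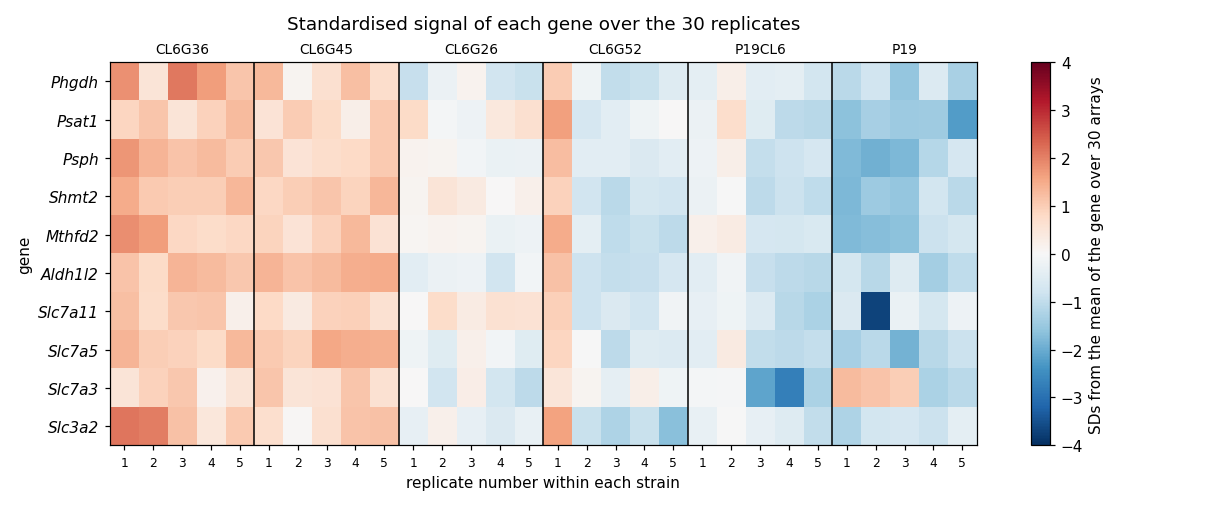
Standardised signal of the 10 genes (rows) in each of the 30 replicates (columns, grouped by strain), in SDs from the mean of the gene over 30 arrays. CL6G36, CL6G45 and CL6G52 replicate 1 are on the red side for all 10 genes. Some cells are only just so, such as Slc3a2 in CL6G45 replicate 2, at 0.055. Slc7a3 is red in P19 replicates 1 to 3, where the other genes are blue.

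The mean standardised signal of the 9 genes read on MOE430A was then set against each of 8897 other genes on that array type. The 6 most alike by Pearson's r over 30 arrays were Pck2 (0.972), the mitochondrial form of PEP carboxykinase, Trib3 (0.960), a pseudokinase, Herpud1 (0.945), a protein of endoplasmic reticulum degradation, Atf4 itself (0.943), Cnpy2 (0.937) and Slc1a4 (0.936), a carrier of small neutral amino acids. The 3 least alike were Nop10 (-0.950), Prickle1 (-0.928) and Eef1akmt1 (-0.924). Over the 25 arrays, Pck2, Trib3, Atf4, Herpud1, Slc1a4 and Cnpy2 took ranks 1, 2, 4, 5, 9 and 11, and Nop10 and Prickle1 were again the least alike. Pck2 averaged 9.38 ± 0.09 in CL6G36 and 9.15 ± 0.11 in CL6G45, against 8.30 ± 0.32 in P19CL6 (SD, n = 5). Nop10, a small protein of box H/ACA ribonucleoproteins, averaged 10.27 ± 0.09 in CL6G36 and 10.27 ± 0.07 in CL6G45, against 11.11 ± 0.24 in P19CL6.

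Atf4 read 11.17, 11.01, 10.97, 10.94 and 10.99 in CL6G36 and 10.90, 10.98, 11.08, 11.04 and 10.93 in CL6G45, against 10.67, 10.78, 10.45, 10.37 and 10.38 in P19CL6. Both sublines lay above P19CL6 on every array. It rose by 0.48 ± 0.10 in CL6G36 (adjusted p = 0.00113, limma) and 0.45 ± 0.10 in CL6G45 (adjusted p = 0.00229, limma), and neither call held with the deposited scaling, where the adjusted p was 0.169 and 0.0951. In P19CL6 against P19 it rose by 0.41 ± 0.10 (adjusted p = 0.0207, limma), a call lost under 9 alternatives, among them the fit without P19 replicates 1 to 3 and that without P19CL6 replicates 1 and 2. Ddit3, the stress factor CHOP, read 8.77, 8.34, 8.45, 8.57 and 8.95 in CL6G36 and 8.39, 7.97, 8.29, 8.07 and 7.88 in CL6G45, against 5.85, 7.09, 4.27, 4.68 and 4.86 in P19CL6. P19CL6 replicates 1 and 2 were the highest of their strain but still below both sublines. Ddit3 rose by 3.27 ± 0.53 in CL6G36 (adjusted p = 4.55e-05, limma) and 2.77 ± 0.53 in CL6G45 (adjusted p = 0.000426, limma). In CL6G52 it read 8.01 in replicate 1 and 2.62, 5.06, 4.88 and 5.07 in the others. In CL6G26 it read 4.72 to 6.0 and in P19 4.08 to 4.82, and neither CL6G26 nor CL6G52 passed for Atf4 or Ddit3 against P19CL6.

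**Figure D4:**
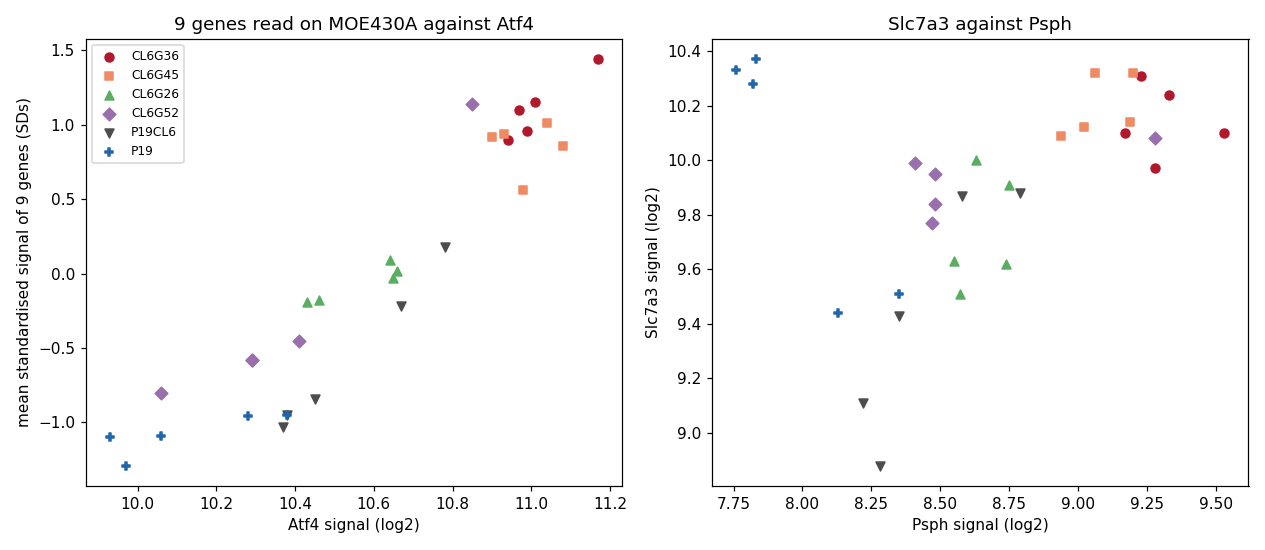
Left, mean standardised signal of the 9 genes read on MOE430A (vertical axis, SDs) against the log2 signal of Atf4 (horizontal axis); right, log2 signal of Slc7a3 (vertical axis) against that of Psph (horizontal axis). Each point is 1 array of MOE430A; on the left the arrays run along a single band with CL6G52 replicate 1 beside CL6G36 and CL6G45, and on the right P19 replicates 1 to 3 stand at the upper left, with Slc7a3 high and Psph low.

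Other genes of the same pathways were counted in lists. Of 16 tested factors of the ATF4 pathway, 9 rose and 0 fell in CL6G36 against P19CL6, and 8 rose and 0 fell in CL6G45. Of all genes, 13.5% and 13.3% passed there in either direction, and 6.83% and 6.55% passed with a rise. The same shares stand behind the counts of the other lists in these sublines. The median difference of the ATF4 factors was 0.54 in CL6G36 and 0.42 in CL6G45, beside 0 over all genes. Cebpb, a C/EBP factor, rose by 1.62 ± 0.23 in CL6G36 and 1.48 ± 0.23 in CL6G45. Trib3 rose by 1.59 ± 0.27 in CL6G36 and 1.43 ± 0.27 in CL6G45. Atf5 rose by 1.0 ± 0.17 in CL6G36. In CL6G45, Cebpg rose by 0.72 ± 0.12 and Ppp1r15a, which directs the removal of phosphate from the initiation factor eIF2, by 0.95 ± 0.17. In P19CL6 against P19, where 4.46% of all genes passed, 5 of the 16 rose. Among them were the stress gene Ddit4, by 0.86 ± 0.18, and Eif2ak4, the kinase that senses amino acid shortage, by 0.92 ± 0.19. Both calls were lost without P19 replicates 1 to 3, and without P19CL6 replicates 1 and 2. In CL6G26 against P19CL6 0 of the 16 passed in limma, with 1 at an unadjusted p under 0.05, and in CL6G52 the counts were the same. Of all genes, 1.24% passed in CL6G26 and 3.18% in CL6G52.

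Of 22 other amino acid transporters tested, 5 rose and 1 fell in CL6G36 against P19CL6, and 4 rose and 0 fell in CL6G45, with medians of 0.21 and 0.28. Of all genes in CL6G45, 13.3% passed in either direction and 6.55% passed with a rise. Slc1a4 rose by 0.91 ± 0.15 in CL6G36 and 0.87 ± 0.15 in CL6G45. Slc6a9, the glycine transporter GlyT1, rose by 1.03 ± 0.18 in CL6G36 and 0.72 ± 0.18 in CL6G45. In CL6G36, Slc38a7 rose by 0.55 ± 0.11 and Slc1a5, a glutamine carrier, by 0.47 ± 0.13. In CL6G45, Slc1a3, a glutamate carrier, rose by 0.85 ± 0.22 and Slc7a1, another cationic amino acid carrier, by 0.74 ± 0.20. Of 14 other amino acid synthesis genes, 8 rose and 1 fell in CL6G36, and 4 rose and 0 fell in CL6G45, with medians of 0.48 and 0.21. Got1, an aspartate aminotransferase, rose by 0.54 ± 0.06 in CL6G36 and 0.41 ± 0.06 in CL6G45. Cth, which makes cysteine, rose by 0.56 ± 0.08 and 0.58 ± 0.08 in CL6G36 and CL6G45. Aldh18a1, of proline synthesis, rose by 0.94 ± 0.14 in CL6G36, and Gpt2, a mitochondrial alanine aminotransferase, by 0.97 ± 0.18 in CL6G45. Bcat2, the mitochondrial aminotransferase of branched-chain amino acids, rose by 0.66 ± 0.11 in CL6G36. Asns, the asparagine synthetase, rose by 0.27 ± 0.08 in CL6G45. With the deposited scaling, Slc1a4, Slc6a9, Aldh18a1, Gpt2 in CL6G45 and Cth in CL6G45 still passed, as did Slc1a3 in CL6G45, while Got1 in both sublines, Cth, Slc1a5, Slc38a7 and Bcat2 in CL6G36, and Asns and Slc7a1 in CL6G45 did not.

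Most other folate and purine genes did not pass, and neither did most genes of any kind. Of all genes, 13.5% passed in CL6G36 and 13.3% in CL6G45 against P19CL6. Of 17 other folate, methionine and glycine cleavage genes, 2 rose and 2 fell in each of CL6G36 and CL6G45 against P19CL6, with median differences of -0.07 and -0.11. Mthfd1l, the mitochondrial enzyme that releases formate, rose by 0.39 ± 0.09 in CL6G36 and 0.38 ± 0.09 in CL6G45. Aldh1l1, the cytosolic counterpart of Aldh1l2, rose by 0.44 ± 0.15 in CL6G36 and 0.57 ± 0.15 in CL6G45. Gcsh, the lipoate-carrying protein of the glycine cleavage system, fell by 0.44 ± 0.10 in CL6G36 and by 0.52 ± 0.10 in CL6G45. Gldc, the decarboxylase of that system, fell by 0.27 ± 0.09 in CL6G36, and Slc19a1, the reduced folate carrier, fell by 0.36 ± 0.10 in CL6G45. The calls of Aldh1l1 and Gldc in CL6G36 were lost under 13 and 12 of 21 alternatives, those of Mthfd1l under 5 in CL6G36 and 7 in CL6G45, and that of Aldh1l1 in CL6G45 under none. Of 10 purine synthesis genes, 0 rose and 1 fell in CL6G36, Atic by 0.27 ± 0.07, a call lost under 13 of 21 alternatives. In CL6G45, 0 rose and 2 fell, Atic by 0.32 ± 0.07 and Prps2, which makes the ribose donor PRPP, by 0.69 ± 0.18. Their medians were -0.03 in CL6G36 and -0.17 in CL6G45.

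In CL6G52 against P19CL6, where 3.18% of all genes passed, 2 of the 10 purine genes rose and 0 fell. Prps1 rose by 0.49 and Prps2, which was lower in CL6G45, by more. Prps2 read 7.05, 8.44, 8.47, 8.38 and 8.54 in CL6G52, against 7.12, 6.97, 7.28, 7.07 and 7.34 in P19CL6. The low CL6G52 array is replicate 1, the array on which the 10 genes were high. Prps2 rose by 1.02 ± 0.18 in CL6G52 against P19CL6 (adjusted p = 0.000695, limma), and by 1.30 without replicate 1 (adjusted p = 6.72e-09, limma). Of 12 genes of glutathione metabolism and the NRF2 response, 1 rose and 2 fell in CL6G36 against P19CL6, and 0 rose and 3 fell in CL6G45, with medians of -0.11 and -0.08. Hmox1, heme oxygenase, rose by 0.67 ± 0.08 in CL6G36. Txn1, thioredoxin, fell by 0.26 ± 0.07 in CL6G36 and by 0.20 ± 0.07 in CL6G45, and Txnrd1, a thioredoxin reductase, fell by 0.38 ± 0.12 in CL6G45. The Txn1 and Txnrd1 calls were lost with the deposited scaling. Gclc, the catalytic subunit of glutamate-cysteine ligase, fell by 0.62 ± 0.10 in CL6G36 and by 0.82 ± 0.10 in CL6G45, under all 21 alternatives in both. Gclc averaged 7.34 ± 0.20 in CL6G36 and 7.14 ± 0.11 in CL6G45, against 7.96 ± 0.19 in P19CL6 (SD, n = 5).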

How the data were processed

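RNA of each replicate, extracted with a column kit and biotin-labelled in a two-cycle protocol per the labels, was read on Affymetrix MOE430A and MOE430B arrays. The deposited values are probe set intensities on a linear scale, 1 column per array, made with GCOS per the submitters' processing notes. Its version and any scaling target are not given in the sources used here. Without the control probe sets, the 30 arrays of each type were quantile normalised on the linear scale. Signals under 1 were then set to 1 and log2 values were taken. A probe set was tested if it exceeded the 40th percentile of MOE430A or the 60th of MOE430B on at least 5 of 30 arrays. Gene names came from the platform annotation. Strain means were fitted over all 30 arrays with limma 3.58.1 in R 4.3.3 with a variance trend (24 residual degrees of freedom), and p-values were adjusted over each array type. On simulated data for CL6G36 against P19CL6 on MOE430A (15068 probe sets), 82% of 200 probe sets changed 2-fold were recovered and 0.067% of unchanged ones passed.

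The members, gene lists and tests were chosen with earlier results of these data known. Named were all 10 members, up to 4 genes of each list with the smallest adjusted p among those that passed in CL6G36 or CL6G45 against P19CL6 (in other comparisons only some of them), Atf4, Ddit3, Pou5f1, and the 6 most and 3 least correlated genes. Alternatives changed the scaling, filter, floor, probe set, variance prior, array weights, samples fitted, replicate block and arrays left out. The correlations and strain orders without arrays that stood apart were added after seeing the data. Replicate numbers were checked for pairing over the strain comparisons with P19CL6 or P19: same-numbered arrays had correlations of deviations from -0.10 to 0.08, none of 5 pairs over 0.1, so the numbers were not taken as pairs. No 2 arrays held identical values.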

Additional observations from a re-analysis of the deposited data

Results flagged for a closer look

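Within each strain the highest and lowest array of every gene was compared with the other 4 arrays by Dixon's ratio, with a limit of 0.71. Of 60 groups of 5 arrays, 6 held an array that far from the others, while chance gives about 1 in 20. CL6G52 replicate 1 accounted for 5 of them, and the 60 groups share arrays. It read 9.28 for Psph, against 8.41 to 8.48 on the other CL6G52 arrays. It read 9.36 for Shmt2 (others 8.27 to 8.46) and 10.56 for Mthfd2 (others 9.59 to 9.84). For Aldh1l2 it read 6.83 (others 4.92 to 5.17), and for Slc3a2 10.93 (others 9.92 to 10.16). These signals lie within or close to the ranges of CL6G36 and CL6G45. P19 replicate 2 read 1.90 for Slc7a11, against 4.48 to 4.92 on the other P19 arrays, and the floor of that array type is 4.61.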

How the results depend on the processing

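No gene that passed turned its direction under any alternative. The count of the 10 genes that passed stayed within 1.5 times its main value under every alternative for CL6G45 against CL6G36, and under all but the deposited scaling for CL6G36 against P19CL6, CL6G36 against CL6G26, CL6G52 against CL6G36 and the F test. With the deposited scaling, the count was 0 in P19CL6 against P19, 5 in CL6G36 and 6 in CL6G45 against P19CL6, 1 in CL6G36 and 1 in CL6G45 against CL6G26, 3 in CL6G52 against CL6G36, 2 in CL6G52 against CL6G45 and 2 by the F test. All genes passed numbered 48 in P19CL6 against P19 under that scaling (588 in the main analysis), 34 in CL6G26 (164), 329 in CL6G36 (1786), 385 in CL6G45 (1747) and 171 in CL6G52 (419) against P19CL6, 721 in CL6G36 (1856) and 534 in CL6G45 (1746) against CL6G26, 78 in CL6G45 against CL6G36 (395), 493 in CL6G52 against CL6G36 (1732), 159 in CL6G52 against CL6G45 (1458) and 1219 by the F test (3052). That scaling moved the median difference of all genes to 0.13 in CL6G26, 0.12 in CL6G45 and 0.11 in CL6G52 against P19CL6, while it stayed at 0 in CL6G36 against P19CL6, and the cause of the lost calls was not tested. Of all genes that passed, the numbers higher and lower were 39 and 9 under that scaling in P19CL6 against P19 (339 and 249 in the main analysis), 135 and 36 in CL6G52 against P19CL6 (182 and 237; 95 and 381 with median scaling), 747 and 80 in CL6G52 against CL6G26 (300 and 268; 220 and 501) and 55 and 23 in CL6G45 against CL6G36 (180 and 215; 107 and 281). Median scaling gave 6 genes in CL6G45 against P19CL6, 2 in CL6G45 against CL6G26 and 1 in CL6G52 against CL6G26. Array weights gave 6 in P19CL6 against P19, 1 in CL6G26 against P19CL6, 8 in CL6G45 and 1 in CL6G52 against CL6G26, and all genes then numbered 2005, 431, 2693 and 1118 in these comparisons, 840 in CL6G52 against P19CL6, 630 in CL6G45 against CL6G36 and 2466 in CL6G52 against CL6G45. With only the compared strains fitted, 0 of the 10 and 0 of all genes passed in P19CL6 against P19, 2 in CL6G26 against P19CL6 and 8 in CL6G45 against CL6G26, and 252 of all genes in CL6G52 against P19CL6. In P19CL6 against P19 the count was 1 with no filter and 0 without the variance trend (374 of all genes). In CL6G26 against P19CL6 it was 1 with signals raised to the floor.

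Without P19 replicates 4 and 5, 5 of the 10 and 2588 of all genes passed in P19CL6 against P19, and without P19 replicates 1 to 3, 0 and 0. Without P19CL6 replicates 1 and 2 the counts there were 1 and 10. The count of the 10 genes was then 1 in CL6G26 and 1 in CL6G52 against P19CL6, without a count over all genes given here. Leaving out P19CL6 replicates 1 and 2 and P19 replicates 4 and 5, a choice made after seeing the data, gave 2043 of all genes. Leaving out 1 replicate at a time gave 0 to 5 of the 10 and 0 to 1502 of all genes in P19CL6 against P19, 0 to 1 in CL6G26, 5 to 10 in CL6G45 and 0 to 1 in CL6G52 against P19CL6 (266 to 644 of all genes), 3 to 6 in CL6G45 and 0 to 2 in CL6G52 against CL6G26, and 3 to 9 in CL6G52 against CL6G45. With the replicate block the count was 3 in P19CL6 against P19, 10 in CL6G36 and 10 in CL6G45 against P19CL6, and 6 in place of 5 in CL6G45 against CL6G26; it moved no count of calls by over 1.5 times.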
